A study of Mus musculus with 8 samples.

Results

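The 10 genes described here are the mouse gene of the tumour suppressor p53 (Trp53), its inhibitors Mdm2 and Mdm4, the cyclin-dependent kinase (CDK) inhibitors Cdkn1a, Cdkn1b, Cdkn2a and Cdkn2b, the retinoblastoma gene Rb1, and the apoptosis genes Bax and Bbc3. They were chosen by name, from 21887 protein-coding genes of the RefSeq annotation of GRCm38. H3K36me3, the trimethylated form of a lysine of histone H3, was mapped on them by chromatin immunoprecipitation and sequencing (ChIP-seq). The cells were bone marrow stromal cells (BMSCs) of Setd2 fl/fl C57BL/6J mice at passage 2, so the floxed allele was carried by both groups. KO cells were infected with a lentivirus for Cre recombinase, and WT cells with a lentivirus for GFP. After 4 days of selection in puromycin (2 µg/ml), both were fixed in formaldehyde. Each group had 2 H3K36me3 libraries, plus 1 Input and 1 IgG control library that its 2 H3K36me3 libraries shared. Whether the 2 libraries of a group were made from separate cultures is not stated in the labels, and every p-value rests on the spread between these libraries alone, which may be technical.

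Setd2 is the enzyme that trimethylates this lysine on nucleosomes behind elongating RNA polymerase II, and the mark therefore lies in the bodies of transcribed genes, usually more toward their 3′ ends. p53 is a transcription factor that is kept low by Mdm2, a ubiquitin ligase, and by the related protein Mdm4. When stress frees it, p53 raises transcription of Cdkn1a, whose product p21 stops the cell cycle, and of Bax and Bbc3, which promote release of cytochrome c from mitochondria. The p16Ink4a product of Cdkn2a and the p15 product of Cdkn2b lead to an active retinoblastoma protein. This arm together with p53 holds ageing cultures of stromal cells in senescence.

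The measure was the percent of a gene's span that lay under H3K36me3 peaks called by the authors, here called coverage, and peaks called against Input were used unless IgG is named. The peak lists of the KO libraries were smaller, with 122589 and 159459 peaks, against 242745 and 246258 peaks in the WT libraries. They spanned 71.7 and 94.4 Mb in KO and 243 and 235 Mb in WT. Setd2 itself had a coverage of 0.690% and 1.70% in KO cells, against 66.4% and 60.5% in WT cells. This is a measure of its chromatin and does not check the deletion. The lists hold no read counts, so depth is unknown, and its part in the differences was not tested. In cell populations like these, fewer cells with the mark and less of the mark per cell cannot be told apart. Of 12 stromal marker genes, the median coverage was 2.02% in KO and 45.7% in WT, and of 10 haematopoietic genes it was 3.58% in KO and 18.1% in WT. The stromal marker Thy1 had no peak in any library, Ptprc (CD45) had 2.52% and 4.86% in KO against 15.0% and 14.2% in WT, and the T cell gene Cd3e had 5.14% and 0% in KO against 0% and 0% in WT. Genes of myeloid cells differed in WT coverage. Lyz2 had 0% and 11.4% in KO against 74.9% and 87.6% in WT. Cd68 had 0% and 0% in KO against 37.0% and 71.3% in WT, and Csf1r 2.74% and 2.98% in KO against 45.1% and 43.5% in WT. Lower in WT were Spi1 (0% and 1.75% in KO, 19.3% and 14.8% in WT) and Itgam (4.59% and 3.64%, 23.9% and 21.7%). So were Adgre1 (2.28% and 4.67%, 18.6% and 17.3%) and Lcp1 (3.56% and 4.74%, 20.5% and 15.9%). Against IgG, Lyz2 had 0% and 0% in WT, Cd68 kept its values and Csf1r had 29.2% and 43.5% in WT. Some stromal markers lost WT coverage against IgG too. Vim went from 82.2% and 92.2% to 0% and 0%, and Col1a1 from 73.3% and 64.3% to 0% and 0%. Col1a2 went to 2.59% and 8.63%, and Cxcl12 to 5.22% and 0%. Prrx1, Pdgfra, Pdgfrb, Col3a1, Nt5e and Eng kept most of their WT coverage. Against Input, the stromal marker Lepr had 4.02% and 3.66% in KO and 3.33% and 0.812% in WT. The part of other marrow cells in the results was not tested.

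Windows of 250 bases before the transcription starts of Cdkn1a and Cdkn2a are shown because each gene has 2 RefSeq starts far apart. The WT coverage described below begins downstream of both starts at Cdkn1a, and between the starts at Cdkn2a. Sequences are from RefSeq (GRCm38.p6), 5′ to 3′ on the strand of the gene. In the window before the upstream start of Cdkn1a (plus strand, chr17:29090729-29090978), capitals mark a pair of CATG cores with 6 bases of any kind between them, as found in p53 response elements.
Cdkn1a upstream start: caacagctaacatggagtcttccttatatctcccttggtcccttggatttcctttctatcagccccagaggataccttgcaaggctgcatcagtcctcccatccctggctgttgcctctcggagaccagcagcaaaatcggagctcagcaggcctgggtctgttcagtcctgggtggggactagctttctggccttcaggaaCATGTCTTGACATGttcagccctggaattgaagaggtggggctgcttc
In the other windows capitals mark CG dinucleotides. They stand before the downstream start of Cdkn1a (chr17:29093519-29093768), the upstream start of Cdkn2a on the minus strand (chr4:89294620-89294869), which gives the p19Arf transcript, and its downstream start (chr4:89282193-89282442), which gives the p16Ink4a transcript.
Cdkn1a downstream start: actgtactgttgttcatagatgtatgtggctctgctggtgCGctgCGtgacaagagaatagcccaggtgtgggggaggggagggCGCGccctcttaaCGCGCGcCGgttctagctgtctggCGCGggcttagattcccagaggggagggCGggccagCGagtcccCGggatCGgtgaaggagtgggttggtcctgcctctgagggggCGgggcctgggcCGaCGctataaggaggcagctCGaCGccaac
Cdkn2a p19Arf start: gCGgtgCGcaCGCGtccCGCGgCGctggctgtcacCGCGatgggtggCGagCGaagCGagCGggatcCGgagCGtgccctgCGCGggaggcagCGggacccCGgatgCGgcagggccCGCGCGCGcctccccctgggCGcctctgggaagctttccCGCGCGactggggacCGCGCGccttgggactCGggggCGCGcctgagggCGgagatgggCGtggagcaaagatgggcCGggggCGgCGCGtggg
Cdkn2a p16Ink4a start: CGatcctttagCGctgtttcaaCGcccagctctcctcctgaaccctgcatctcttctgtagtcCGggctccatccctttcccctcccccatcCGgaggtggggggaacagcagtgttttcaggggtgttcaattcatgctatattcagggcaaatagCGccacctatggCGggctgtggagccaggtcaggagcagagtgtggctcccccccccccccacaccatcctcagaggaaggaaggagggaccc
The Cdkn1a match began 48 bases before the start. This motif reads the same on both strands, and of 21263 RefSeq promoter windows of this length 90 (0.423%) held it. Among the members with a window in the table (9 of 10, all but Rb1), no other window held it. The p19Arf window held 40 CG dinucleotides and the p16Ink4a window 7. The upstream and downstream windows of Cdkn1a held 2 and 19, and the median over all windows was 10. All of these windows were free of peaks in all 4 libraries.

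Coverage was lower in both KO libraries than in both WT libraries at all 10 genes, as it was at 54.4% of all protein-coding genes. The median over the members was 0.348% in KO and 44.8% in WT, against 2.17% in KO and 14.1% in WT over all protein-coding genes. A test was made for genes with a mean coverage over the 4 libraries of at least 10% (limma on the percent scale, two-sided, adjusted over all 10809 genes tested), which 8 members passed. All 8 fell past an adjusted p of 0.05. Of all genes tested, 92.6% fell and 0.555% rose, so the members' count is close to the background. Each of the 8 passed the filter only through its WT coverage, which favours a fall in advance, and the count is given as a description. With no filter on low coverage, all 10 members fell, as did 58.5% of the 18288 genes then tested. The median change of the 8 members was -48.9 percentage points, against -47.7 points over all genes tested with the filter. Cdkn1b and Cdkn2a lay under the filter and have no test.

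**Figure D1:**
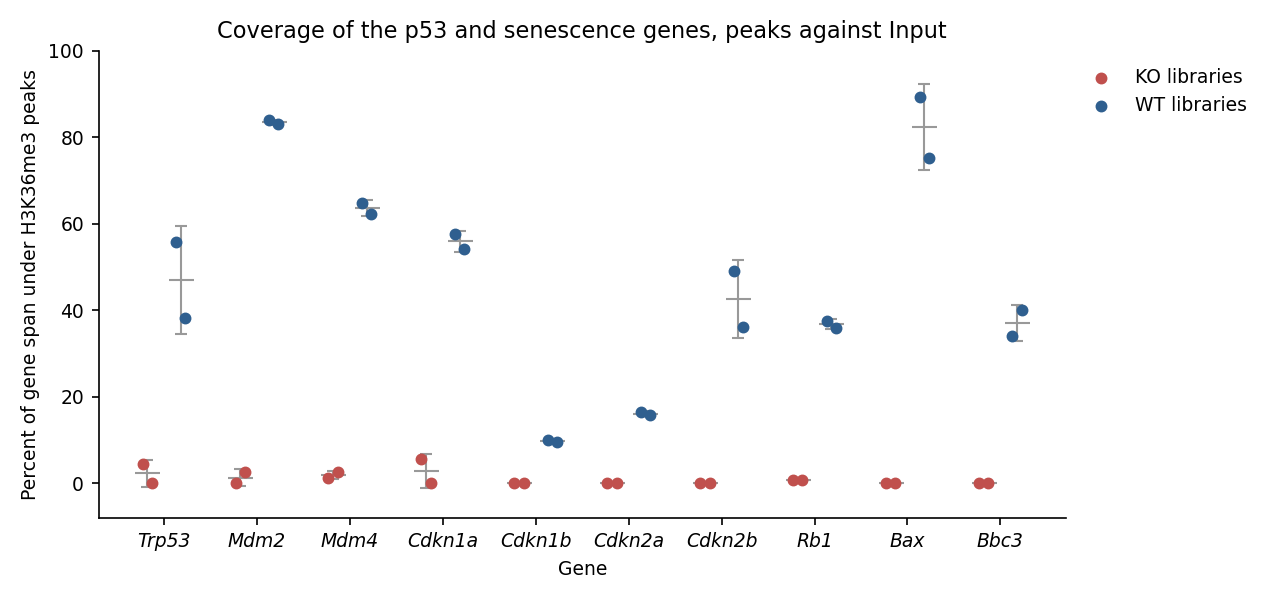
Percent of the span of each member gene under H3K36me3 peaks called against Input, with a point per library and a bar at the mean of the 2 libraries of a group, KO left of WT. The KO points lie between 0% and 5.68%, and the WT points between 9.58% at Cdkn1b and 89.3% at Bax.

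Among p53 and its inhibitors, Mdm2 and Mdm4 carried dense coverage in WT cells and Trp53 a more variable one. Trp53 (chr11:69580348-69591873, plus strand) had a coverage of 4.54% and 0% in KO replicates 1 and 2, against 55.9% and 38.1% in WT replicates 1 and 2. The groups did not overlap, but the WT libraries stood far apart. It fell by 44.7 percentage points (SE 7.11, limma adjusted p = 0.00566). The change was -35.8 points without WT replicate 1 and -42.5 points without KO replicate 2, and neither was called. It was -53.6 points without WT replicate 2 and -47.0 points without KO replicate 1, and both were called. Each of these fits leaves 1 library in a group. With each library scaled to the same mean coverage over all genes, the change at Trp53 was -15.1 points, which was not called (limma adjusted p = 0.288). Such scaling takes out any difference in mean coverage between the groups. Of all genes tested, 45.2% then fell, and the median change was -16.7 points. The peaks of Trp53 stood in its 3′ part. In WT replicate 1 the widest ran over 5002 bp (chr11:69586851-69591852), and in WT replicate 2 over 3642 bp (chr11:69587406-69591047). Coverage began 3.25 kb from the 5′ end in WT replicate 1 and 7.06 kb from it in WT replicate 2. The one KO peak, of 523 bp, lay inside the widest peak of both WT libraries.

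Wrap53, which encodes a telomerase RNP protein and lies 97 bp from the Trp53 span, had a coverage of 10.6% and 3.88% in KO against 79.0% and 77.7% in WT. It fell by 71.2 points (limma adjusted p = 0.000233). Atp1b2, a sodium pump subunit on the other side of Trp53, had 10.3% and 5.52% in KO against 0% and 8.64% in WT, and these ranges overlap. In WT cells, therefore, Trp53 lay between a gene that was mostly covered and one that was mostly bare. The genes of similar size (5 to 50 kb) whose 4 library values lay nearest to those of Trp53, by Euclidean distance among 11907 genes, were Wdsub1, Rab32 and Bpnt2, at distances of 2.22, 2.98 and 3.41 points. Wdsub1 had 3.35% and 1.66% in KO, against 56.5% and 37.5% in WT. Because Wdsub1 was picked on these 4 values, its likeness to Trp53 follows from the choice.

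Mdm2 (chr10:117688875-117710758, minus strand) had a coverage of 0% and 2.63% in KO, against 83.9% and 83.0% in WT, which put it at the 98th percentile of WT coverage. It was covered nearly end to end in both WT libraries and bare or almost bare in KO. It fell by 82.1 points (SE 2.10, limma adjusted p = 0.000211). The WT libraries had 9 and 10 peaks on it, up to 6884 bp and 4905 bp wide, and the KO libraries 0 and 1. Coverage in WT began 0.872 and 1.43 kb from the 5′ end, nearer to the 5′ end than at any other of the 9 members with a known strand except Bax. The adjacent gene Cpm, a carboxypeptidase gene 1.52 kb beyond the 3′ end of Mdm2, had 4.17% and 1.01% in KO against 0.965% and 0.946% in WT. The covered stretch of Mdm2 thus gave way within a short distance to a gene with almost no peaks.

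Mdm4 (chr1:132986105-133030587, minus strand) had 1.28% and 2.58% in KO, against 64.9% and 62.3% in WT, with little spread within a group. It fell by 61.7 points (SE 2.18, limma adjusted p = 0.000211). Its 19 and 18 WT peaks were up to 4954 and 3667 bp wide, and its KO libraries had 1 and 2 peaks. The last of its 2 RefSeq starts lies 5.17 kb into the span. No library had a peak before it, and beyond it WT coverage was 73.4% and 70.5%, against 1.45% and 2.92% in KO.

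**Figure D2:**
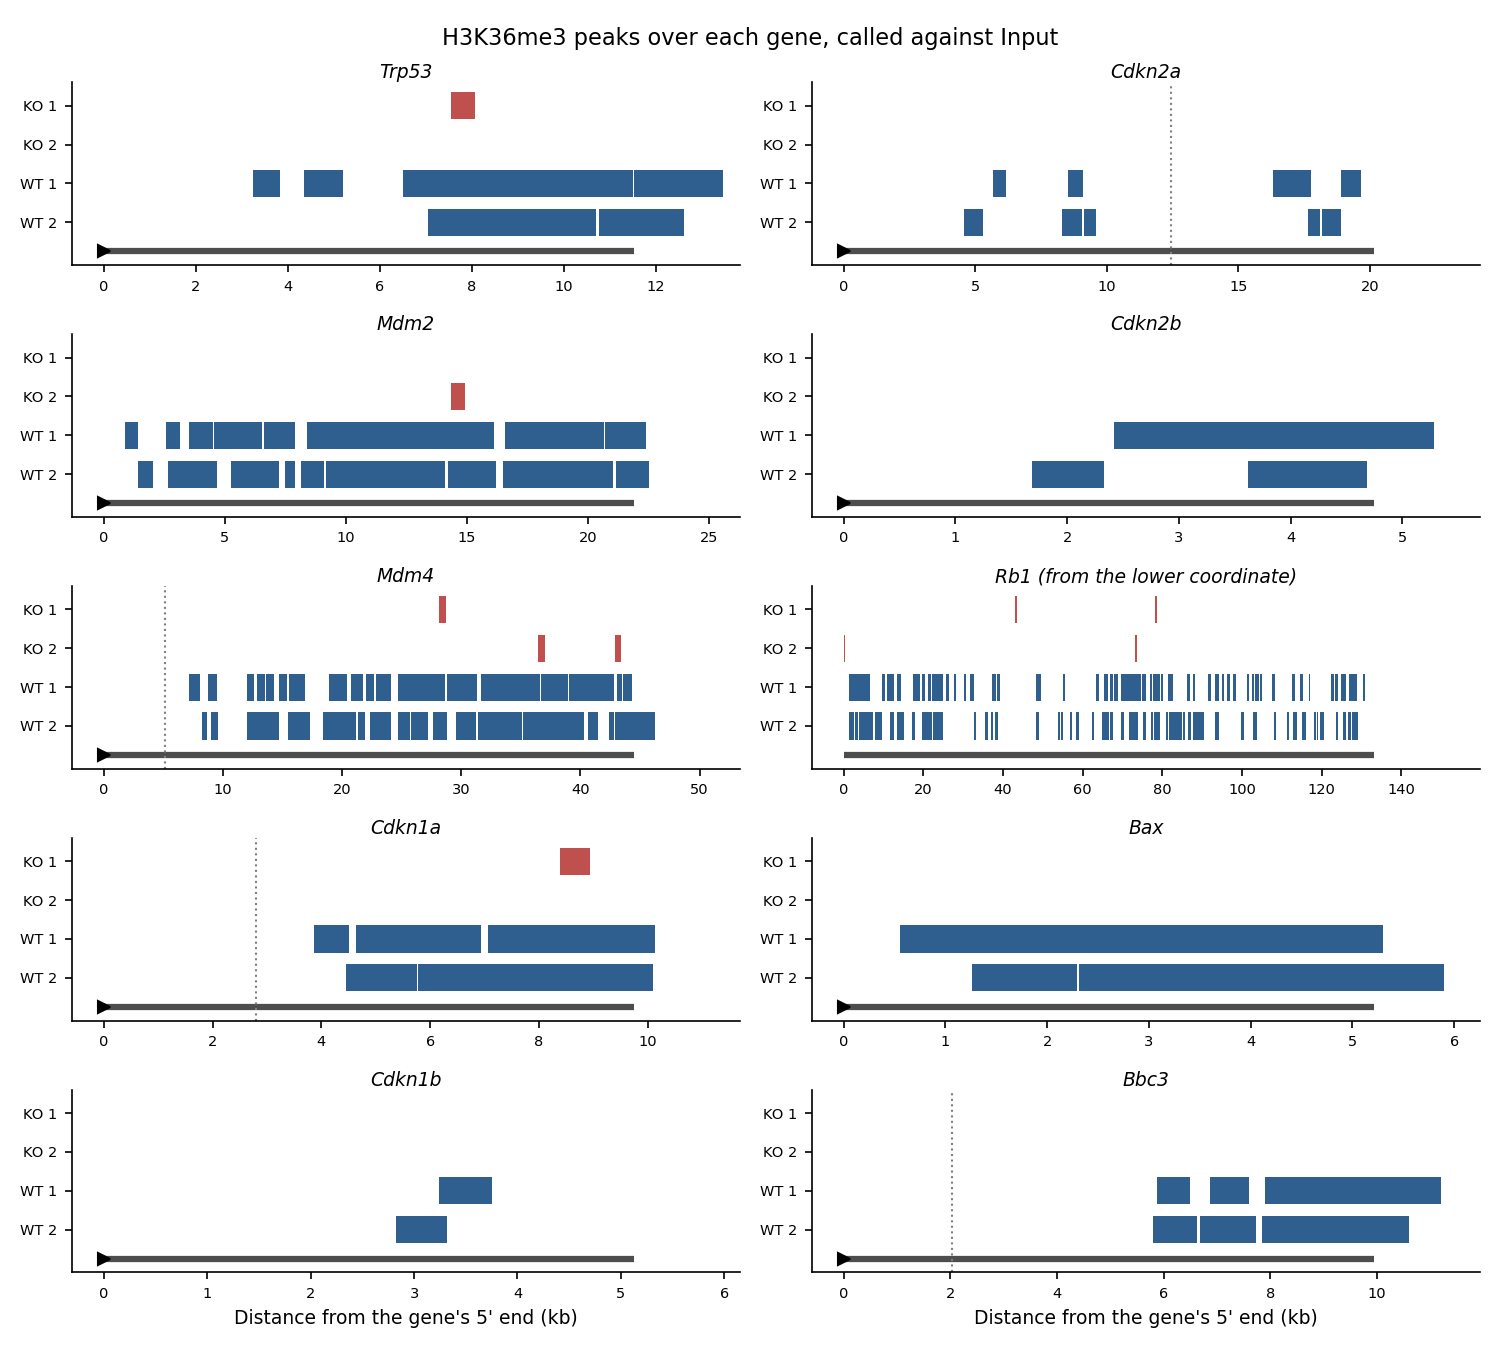
Peaks called against Input on each member gene, with the libraries as rows (KO above WT), distance in kb from the gene's 5′ end on the horizontal axis, and a dotted line at the last RefSeq start. For Rb1, whose strand is not in the tables used, distance runs from the lower coordinate. The KO rows hold 5 short peaks per library in all, and the WT rows 103 and 100 peaks.

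The CDK inhibitor gene Cdkn1a (p21; chr17:29090979-29100722, plus strand) had a coverage of 5.68% and 0% in KO, against 57.7% and 54.2% in WT. The WT libraries were close together and both far above KO. It fell by 53.1 points (SE 3.14, limma adjusted p = 0.000380). With libraries scaled to the same mean the change was -17.3 points and was not called (limma adjusted p = 0.294), beside a median of -16.7 points over all genes tested. The downstream start of Cdkn1a lies 2.79 kb after the upstream one. Between them no library had a peak, and after the downstream start WT coverage was 80.8% and 76.0%, against 7.95% and 0% in KO. The WT peaks began 3.86 and 4.46 kb from the 5′ end and ran past the 3′ end of the gene, the widest over 3074 and 4329 bp. So the window with the CATG pair shown above, and the stretch between the starts, carried no peak while most of the rest of the gene did in WT.

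Cdkn1b, which encodes the CDK inhibitor p27 (chr6:134920401-134925525, plus strand), had a coverage of 0% and 0% in KO, against 10.1% and 9.58% in WT. It was the least covered member in WT cells. The WT coverage came from 1 peak per library, of 517 and 491 bp, with the authors' scores of 18.5 and 17.2 against medians of 35.7 and 36.7 over all peaks of the WT lists. These peaks shared only 83 bp. Its neighbour Gpr19, an orphan receptor gene 22.2 kb upstream, had 2.22% and 3.40% in KO against 40.5% and 31.3% in WT.

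The locus on chromosome 4 holds Cdkn2a and Cdkn2b on the same strand, with 11.7 kb between them. Cdkn2b, which encodes the CDK inhibitor p15 (chr4:89306289-89311032), had 0% and 0% in KO, against 49.0% and 36.2% in WT. It fell by 42.6 points (SE 5.14, limma adjusted p = 0.00248). Its span lies wholly inside that of the long noncoding RNA gene Gm12610, and reads of overlapping genes cannot be told apart in ChIP. Over its own 223442 bp Gm12610 had 1.70% and 3.36% in KO against 4.35% and 4.46% in WT, so most of it was bare around a covered Cdkn2b.

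Cdkn2a (chr4:89274473-89294619) had a coverage of 0% and 0% in KO, against 16.5% and 15.7% in WT. The WT libraries were alike in amount but not in place, since 10.9% of the bases covered in either were covered in both. WT peaks were 4 and 5 in number, and at most 1450 and 774 bp wide. In the 12.4 kb from the p19Arf start to the p16Ink4a start, WT coverage was 8.80% and 16.0%, and from the p16Ink4a start to the 3′ end it was 28.8% and 15.4%. The part before the p16Ink4a start was thus covered about as much as the rest in WT replicate 2 and less in WT replicate 1, and no order between the parts can be read. Mtap, a methionine salvage gene and the nearest protein-coding gene beyond the 3′ end of Cdkn2a, had 1.36% and 8.35% in KO against 60.2% and 61.8% in WT and fell by 56.1 points (limma adjusted p = 0.000373), while Dmrta1, the nearest on the far side of Cdkn2b, had no peak in any library.

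Rb1 (chr14:73192858-73325951) encodes the retinoblastoma protein, which holds back E2F factors, and is the longest member. Its coverage was 0.736% and 0.657% in KO, against 37.6% and 35.95% in WT, and it fell by 36.1 points (SE 1.95, limma adjusted p = 0.000303). It carried 58 and 55 peaks in WT, a median of 731 and 711 bp wide, against 2 and 2 in KO. These many short WT peaks overlapped only in part, with 38.8% of the covered bases shared between the WT libraries. Over 10 equal bins of its length, counted from the lower coordinate, WT coverage was lowest in the fourth (9.05% and 5.35%). That stretch holds the lysophosphatidic acid receptor gene Lpar6, which had no peak in any library. The microRNA gene Mir687, also inside Rb1, was wholly under peaks in both WT libraries and in neither KO library. Both flanking genes were covered as well. Itm2b, a membrane protein gene, had 0% and 0% in KO against 76.4% and 73.4% in WT, and Rcbtb2 had 1.10% and 3.74% in KO against 47.5% and 52.1% in WT.

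The apoptosis genes differed in how much of them was covered. Bax, a pore-forming BCL2 family member (chr7:45461695-45466903, minus strand), had 0% and 0% in KO, against 89.3% and 75.3% in WT. It fell by 82.3 points (SE 5.54, limma adjusted p = 0.000506). In WT replicate 1 a single peak of 4742 bp (chr7:45461605-45466346) covered almost the whole gene. Bbc3, which encodes the BH3-only protein PUMA (chr7:16308398-16318334, plus strand), had 0% and 0% in KO, against 34.1% and 40.03% in WT. It fell by 37.1 points (SE 2.88, limma adjusted p = 0.000725). Its 3 peaks per WT library matched closely, with 85.2% of the covered bases shared, and the first began 5.88 and 5.80 kb from the 5′ end, beyond all 3 RefSeq starts. Next to Bax, the ferritin light chain gene Ftl1 had 15.3% and 0% in KO against 22.5% and 66.9% in WT, a difference that did not pass the test (limma adjusted p = 0.118). Next to Bbc3, Sae1, a SUMO-activating enzyme gene, had 0.486% and 0% in KO against 59.2% and 55.0% in WT.

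In WT cells the order by mean coverage was Mdm2 (83.4% ± 0.624, SD, n = 2), Bax (82.3% ± 9.90), Mdm4 (63.6% ± 1.81), Cdkn1a (56.0% ± 2.45), Trp53 (47.0% ± 12.6), Cdkn2b (42.6% ± 9.09), Bbc3 (37.1% ± 4.18), Rb1 (36.8% ± 1.14), Cdkn2a (16.1% ± 0.519) and Cdkn1b (9.83% ± 0.359). Between neighbours in this order the WT ranges overlapped for Mdm2 and Bax, Cdkn1a and Trp53, Trp53 and Cdkn2b, Cdkn2b and Bbc3, and Bbc3 and Rb1. Mdm4 stood apart from its neighbours in this order, and so did Cdkn2a and Cdkn1b. The members' ranks among all protein-coding genes ran from the 46.7th percentile for Cdkn1b to the 98.4th for Mdm2. In KO cells no order could be read, since 5 members had no peak and the others had 1 to 4 over both libraries. Loss of all peaks was not rare: of all protein-coding genes with peaks in both WT libraries, 21.4% had none in KO.

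The WT peaks avoided the starts of the members. In windows of 1 kb to either side of their 14 RefSeq starts, coverage was 0% in all libraries, with the exception of WT replicate 1 at Bax (22.4%) and at Mdm2 (6.45%). Over 8813 genes with an annotated start, the mean in the same window was 0.951% and 1.12% in KO, and 3.63% and 3.42% in WT, so little coverage there is the background too. Of the covered bases of a gene, the median share downstream of its midpoint was 64.3% and 64.5% in WT, over the 8520 and 8522 of these genes with coverage. That share was 100% in both WT libraries at Cdkn1b and Bbc3, which 7.81% and 7.83% of genes reached. It was 77.8% and 100% at Trp53, 84.4% and 92.1% at Cdkn1a, 71.1% and 67.6% at Mdm4, 56.9% and 57.5% at Mdm2, and 56.0% and 66.4% at Bax. The largest gap between WT libraries was at Cdkn2b, with 100% and 62.4%, and at Cdkn2a, with 67.0% and 37.4%.

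Over all members, peaks numbered 5 and 5 in KO and 103 and 100 in WT. The KO peaks were 435 to 598 bp wide, and 14 peaks in each WT library exceeded 2 kb. No KO peak overlapped a peak of the other KO library. Of the 10 KO peaks, 8 lay on a peak of both WT libraries. Over all genes tested, 62.7% of KO peaks did so. Those on no WT peak were both on Rb1. One was at 43.1 to 43.6 kb from its lower end, in KO replicate 1, and the other reached over that lower end itself, in KO replicate 2. The highest score of a KO peak was 77.2, on Rb1, against 888 for the highest of a WT peak, on Mdm2, although scores of separate lists may not be on the same footing.

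Peaks called against IgG gave the same picture at most members, with 91.4% of the 9635 genes tested falling and 0.218% rising. Of the members, 6 passed the filter and all 6 fell. Trp53, Cdkn1b, Cdkn2b and Bbc3 had the same coverage against IgG as against Input in every library. At Mdm4 the IgG values were 0% and 2.58% in KO against 60.9% and 62.3% in WT, and at Rb1 they were 0.736% and 0.657% in KO against 39.1% and 35.5% in WT. Mdm2 had 0% and 0% in KO, against 83.9% and 62.1% in WT. In WT replicate 2 its highest scoring Input peak, of 4564 bp and with a score of 888, was missing against IgG. In WT replicate 1 the 4076 bp peak at that place was kept, with a score of 476 against Input and 13.2 against IgG. The widest Mdm2 peak of each WT library, of 6884 and 4905 bp, was kept against IgG. Cdkn2a, which stayed under the filter, had 0% and 0% in KO against 19.4% and 9.56% in WT, so its WT coverage was higher than against Input in replicate 1 and lower in replicate 2.

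Bax and Cdkn1a were the members whose groups overlapped against IgG. Bax had a coverage against IgG of 0% and 0% in KO and 0% and 19.8% in WT, and Cdkn1a had 0% and 0% in KO and 30.1% and 0% in WT. Both genes lay under the filter. In both WT libraries the widest and highest scoring Input peak of each of these genes was missing against IgG, among them the 4742 bp Bax peak, with a score of 565, and the 3074 bp Cdkn1a peak, with a score of 509. In WT replicate 2 the other Cdkn1a peak, of 1310 bp and with a score of 44.2, was missing too. Coverage against IgG was 0% and 26.3% of that against Input at Bax in WT replicates 1 and 2, and 52.2% and 0% at Cdkn1a. A value under 25% was seen at 4.39% and 4.38% of genes in the WT libraries. Bax was thus under 25% in WT replicate 1 only, and Cdkn1a in WT replicate 2 only. Ftl1, beside Bax, had no peak against IgG in any library. The part of the single IgG library per genotype in these losses was not tested.

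**Figure D3:**
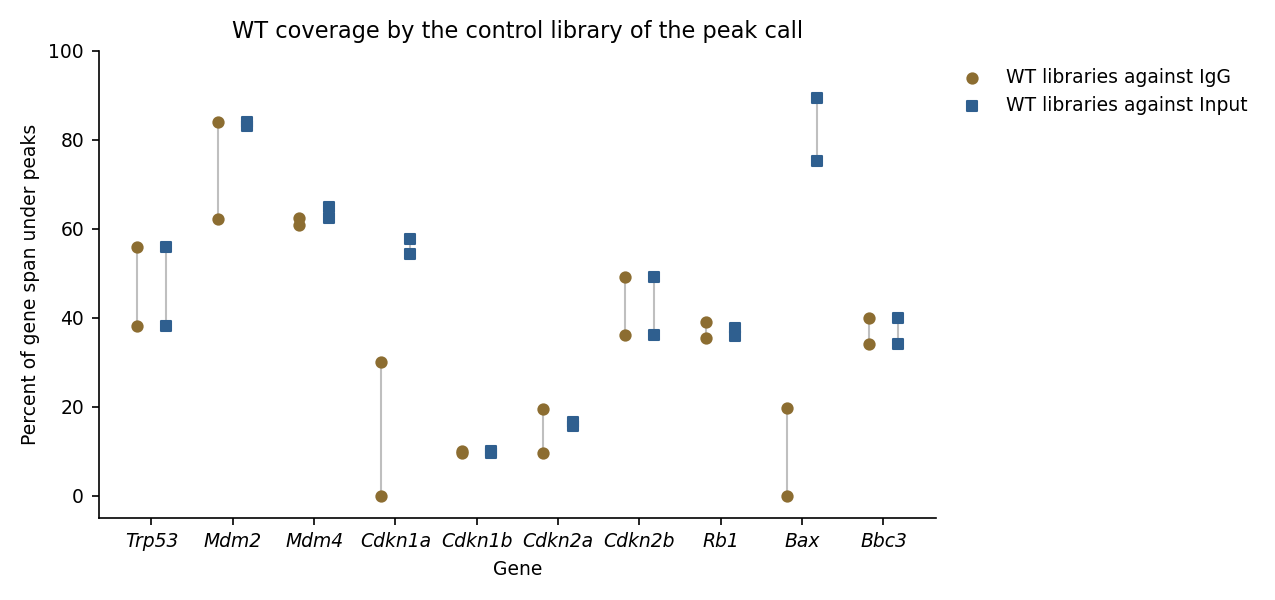
Coverage of each member in the WT libraries, in percent of the gene span, against IgG (left, circles) and against Input (right, squares). A point stands for a library, and a line joins the 2 libraries. At most members the IgG points lie at or near the level of the Input points. At Bax and Cdkn1a they lie well below it.

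The genes around these members in the same pathways were taken from lists chosen by known function. Over 5 lists, with 82 genes in all, 62 genes passed the filter and all 62 fell, as did 92.6% of all genes tested. The filter passes such genes mainly through their WT coverage, so this count is a description too. With no filter 64 of 77 fell, against 58.5% of all genes. Of 16 regulators of p53 14 were tested, with a median fall by 48.9 points. The acetyltransferase gene Ep300 fell by 72.4 and the checkpoint kinase gene Chek1 by 26.8 points (limma adjusted p = 0.0129 for Chek1). The p53 relatives Trp63 and Trp73 lay under the filter.

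Of 26 p53 target genes 22 were tested, with a median fall by 61.0 points. Apaf1, the scaffold of the apoptosome, fell by 78.5 points and the ribosomal protein-like gene Rps27l by 27.5 points. Gadd45a, a stress response gene, was not tested and had 0% and 0% in KO against 0% and 35.2% in WT. Perp, a desmosome gene, was also not tested and had 5.84% and 4.83% in KO against 0% and 0% in WT. Phlda3, an inhibitor of Akt, depended on the control. Against Input it had 15.6% and 0% in KO and 57.0% and 46.4% in WT and fell by 43.9 points (limma adjusted p = 0.00660), and against IgG it had 32.7% and 16.7% in KO and 0% and 0% in WT and rose by 24.7 points (limma adjusted p = 0.0292).

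Of 17 genes of the RB and CDK network 12 were tested, with a median fall by 60.8 points. The G1 cyclin gene Ccne1 fell by 78.9 points, the repressive E2F gene E2f4 by 78.7 points and the G1 kinase gene Cdk6 by 25.3 points. The CDK inhibitor genes Cdkn1c and Cdkn2c had no peak in any library, and Cdkn2d had 0% and 17.5% in KO and none in WT. Of 7 BCL2 family genes 6 were tested, with a median fall by 38.8 points. Bak1, a pore-forming relative of Bax, fell by 64.4 points, the BH3-only gene Bcl2l11 (BIM) by 52.1 points and Bok by 28.1 points (limma adjusted p = 0.0232 for Bok).

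The senescence list was the least covered in WT, with a median of 0% in KO and 16.8% in WT over 16 genes, of which 8 were tested. Glb1, which encodes the lysosomal beta-galactosidase stained in senescent cells, fell by 59.3 points. It had 8.66% and 14.1% in KO against 71.4% and 69.9% in WT, a higher level in KO than at any of the 10 members. The chemokine gene Ccl2 was not tested and had 0% and 0% in KO against 0% and 31.6% in WT. Against IgG it was tested, with 0% and 0% in KO against 30.4% and 31.6% in WT, and fell by 31.02 points (limma adjusted p = 0.000820). The inhibitor of differentiation gene Id1 had no peak in any library.

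**Figure D4:**
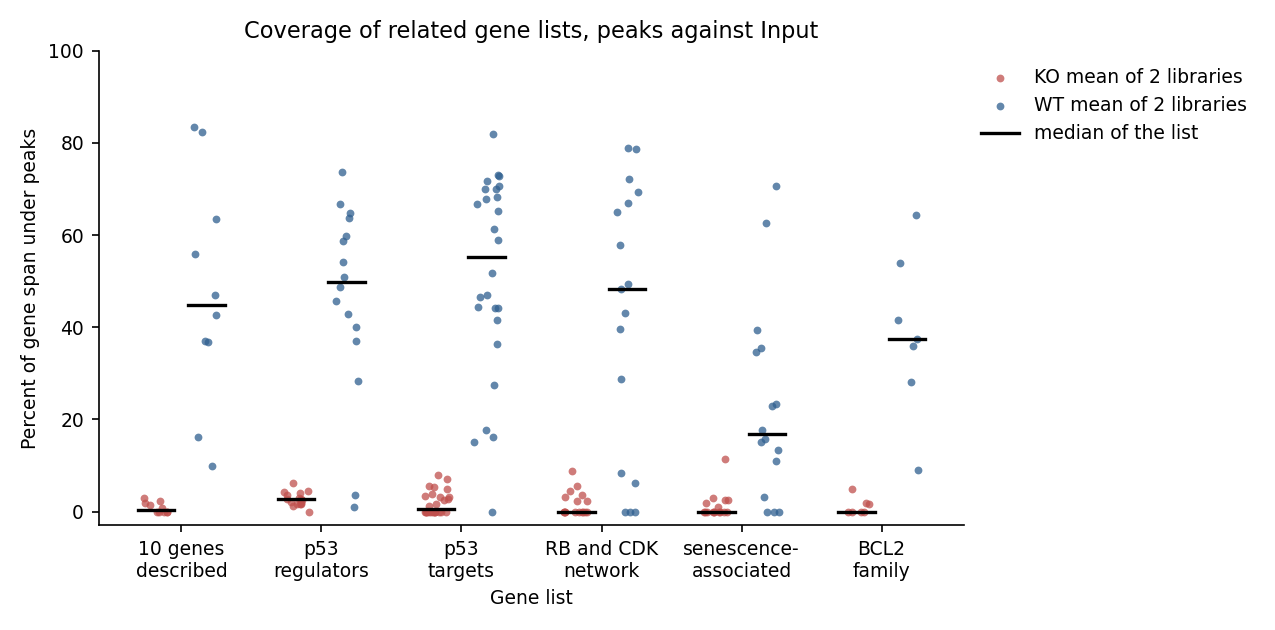
Coverage against Input, in percent of the gene span, of the members and of the genes of each of the 5 lists, tested or not. A point is the mean of the 2 libraries of a group at a gene, KO left of WT, and a bar stands at the median. The medians lie between 0% and 2.63% in KO and between 16.8% and 55.3% in WT.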

How the data were processed

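H3K36me3 was immunoprecipitated from KO and WT stromal cells with 1 antibody, per the labels' protocols. The submitters' processing notes name Bowtie2 and GRCm38, without a version. The 8 deposited peak lists hold 1 list per H3K36me3 library and control, Input or IgG of the same genotype, per the labels. Names of peaks begin with MACS. Not given in the sources used here: version and settings of the caller. Each deposited peak score is the authors' value, on an unstated scale, and served to describe peaks and to filter them.

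Peaks were intersected with RefSeq gene spans (GRCm38.p6) on chromosomes 1 to 19, X and Y, after chromosome names in lower case were written in capitals. A peak counted for a gene from 1 bp of overlap. Coverage in percent was tested with limma 3.58.1 in R 4.3.3 (trend and robust options, statmod 1.5.0), with a mean of at least 10% as filter, Benjamini-Hochberg adjustment and a threshold of 0.05. This step was also run on simulated data with well-covered genes, the WT spread in both groups and few changed genes. That run does not show how the test behaves with KO values at 0% or with most genes falling. An exact permutation test of 2 against 2 libraries cannot give a p under 0.333, so peak numbers, widths and places were described without a test. Alternatives were IgG, a score of at least 50, other filters, scaling, merging within 1 kb, spans extended by 2 kb, bases shared with other genes left out, a replicate block and each library left out. Strand and starts came from the RefSeq promoter table, which held 9 members. Tables were made with Python 3.11.15, numpy 2.4.6 and pandas 2.3.3, and drawn with matplotlib 3.10.9.

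Members and lists were chosen with earlier results of these data known. The genes named were the members, Setd2, the protein-coding genes next to each member and the genes overlapping it, the 3 genes nearest to Trp53, and per list up to 2 tested genes with the largest and 2 with the smallest change, some of which are not reported here. The marker genes, Trp63, Trp73, Gadd45a, Perp, Phlda3, Cdkn1c, Cdkn2c, Cdkn2d, Ccl2 and Id1 were chosen after their values were seen.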

Additional observations from a re-analysis of the deposited data

How the results depend on the processing

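Of 96 values of single members under the alternatives, 92 kept their direction and their side of the threshold, none turned round, and the other 4 are those given for Trp53 and Cdkn1a. Scaling the libraries to equal mean coverage reduced the falls of the 8 tested members to between 15.1 and 46.4 points, with 6 still called and 42 of 62 list genes called, and gave 4890 falls and 261 rises over all genes tested, against 10013 and 60, with a median fall by 16.7 points. With a mean coverage of at least 25% as filter only 4 members and 34 list genes were tested and fell, because fewer genes were tested, and with no filter all 10 members and 64 of 77 list genes fell, as did 10701 of 18288 genes in all (58.5%), while 492 rose. Against IgG, 6 members and 50 of 51 list genes fell. Bax and Cdkn1a, whose groups overlapped against IgG, lay under the filter there and have no IgG value among the 96. With a score of at least 50, 7 fell, Rb1 lying under the filter, and leaving out bases shared with other genes left no value for Cdkn2b. The mean number of peaks over the members was 3.5 in KO and 98.0 in WT against IgG and 1.5 in KO and 46.5 in WT with a score of at least 50, against 5.0 in KO and 101.5 in WT. Merging peaks within 1 kb gave 39.0 in WT. Leaving out each library in turn gave 7 to 8 members and 59 to 60 list genes that fell, and 78.3% to 85.4% of all genes tested. With the replicate block 8 members, 62 list genes and 9993 of all genes fell. Deviations of libraries with the same number were not correlated (r = -0.00333 across 10809 genes, which are not independent). This single correlation cannot tell whether libraries with the same number shared a culture or a batch. The unknown depth sets no limit on how much of the mark a gene without a peak could carry.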
